A study of Mus musculus with 22 samples.

Results

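Many type I interferon-stimulated genes fell in mouse macrophages given oxidised low-density lipoprotein (ox-LDL), the modified lipoprotein particle that loads arterial macrophages with cholesterol. The set holds 42 genes, chosen by symbol as antiviral effectors, nucleic acid sensors and regulators that type I interferon induces. They were chosen with earlier results of these data known, so shares of members beside all genes are descriptions and not independent tests. All 42 were found among the 55487 genes of the deposited tables. In macrophages 39 of them could be tested, 21 were called lower with ox-LDL and 0 higher, where 1.38% of all genes tested were called lower. The Ifit genes fell furthest, by 1.52 to 2.15 on the log2 scale. In monocytes 0 of 41 were called, as were 0.0% of all genes tested in that direction, and 38 of the 41 estimates were below 0.

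The mice were wild-type males of the C57BL/6 strain. Monocytes were taken from the spleen, and macrophages were made from such monocytes in culture over 5 days with PMA (phorbol myristate acetate, 200 ng/mL), an activator of protein kinase C. Monocytes were given vehicle (6 libraries, replicates 1 to 6) or ox-LDL (50 µg/mL for 24 hours; 5 libraries, replicates 7 to 11). Macrophages were given vehicle (5 libraries, replicates A to E) or the same dose of ox-LDL (6 libraries, replicates G to L). All 22 libraries were made from polyadenylated RNA, with totals of 37330389 to 50257111 counts. The age of the mice, and whether the replicates of a group are separate animals or cultures, could not be read from the sources, so the p-values measure only the spread between these libraries. The libraries labelled monocytes had high levels of some dendritic cell markers. Of these libraries 4 (replicates 5, 6, 10 and 11) had high levels of neutrophil markers. The values are given beside the results they touch.

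Type I interferons are cytokines, IFN-α and IFN-β, that bind the receptor pair IFNAR1 and IFNAR2. The kinases JAK1 and TYK2 then phosphorylate STAT proteins, among them STAT2, which join IRF9 in the complex ISGF3. That complex binds a DNA element, the interferon-stimulated response element (ISRE), near the start of its target genes. Myeloid cells keep a low tonic expression of these genes without infection, and IRF7, itself an interferon-stimulated gene, amplifies the response.

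The promoters of the members whose calls lead their families are shown first, with those of Ifit3b, Ifitm1 and Ifitm2 for comparison, because the ISRE is the sequence that ISGF3 binds. The RefSeq table of promoter windows (build GRCm38.p6, 250 bases before to 50 bases after a start) held 31 of the 42 members. It lacked Parp9, Ifi204 and Rtp4, which had the smallest adjusted p of their own families, so these are not shown. The searched ISRE core is GAAANNGAAA on either strand, and each such match is in capitals (a match on the other strand starts with TTTC here). Each line is written 5′ to 3′ on the strand of the gene, which is the minus strand for Isg15, Ddx58, Ifitm3 and Ifitm2 and the plus strand for the others. The lines are Ifit3 (chr19:34583328-34583461), Ifit3b (chr19:34607724-34607857), Isg15 (chr4:156200830-156200941), Ddx58 (chr4:40239796-40239868), Ifitm3 (chr7:141010715-141010787), Ifitm2 (chr7:140955953-140956052), Ifitm1 (chr7:140967996-140968095), Oasl2 (chr5:114896854-114896953) and Cmpk2 (chr12:26469135-26469234).
Ifit3: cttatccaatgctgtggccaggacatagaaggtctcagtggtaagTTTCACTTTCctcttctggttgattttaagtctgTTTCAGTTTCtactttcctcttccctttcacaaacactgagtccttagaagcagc
Ifit3b: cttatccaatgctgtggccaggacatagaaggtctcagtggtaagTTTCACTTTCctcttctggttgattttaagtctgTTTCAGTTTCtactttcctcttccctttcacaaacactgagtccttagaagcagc
Isg15: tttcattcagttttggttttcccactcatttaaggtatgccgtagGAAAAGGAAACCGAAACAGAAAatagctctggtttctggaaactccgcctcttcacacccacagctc
Ddx58: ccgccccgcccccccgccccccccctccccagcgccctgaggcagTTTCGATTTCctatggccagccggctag
Ifitm3: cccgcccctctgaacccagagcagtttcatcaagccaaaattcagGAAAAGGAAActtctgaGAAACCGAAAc
Ifitm2: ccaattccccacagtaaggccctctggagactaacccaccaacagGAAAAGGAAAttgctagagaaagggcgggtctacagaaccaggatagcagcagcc
Ifitm1: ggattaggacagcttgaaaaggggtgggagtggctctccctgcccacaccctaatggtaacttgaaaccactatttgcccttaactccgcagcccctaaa
Oasl2: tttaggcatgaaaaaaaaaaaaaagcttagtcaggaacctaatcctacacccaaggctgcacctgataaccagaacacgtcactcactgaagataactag
Cmpk2: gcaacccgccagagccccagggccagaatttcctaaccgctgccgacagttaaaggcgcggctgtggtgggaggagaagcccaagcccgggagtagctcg

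The Ifit3 and Ifit3b stretches are the same in 134 of 134 letters, although the genes are separate loci, and each holds 2 matches. The first match begins 156 bases before the start of Ifit3 and 188 before that of Ifit3b. In Isg15 the capitals cover 3 overlapping matches, at 78, 72 and 66 bases before the start. Ddx58 has 1 match just after its start, and Ifitm3 has 2 there. Ifitm2 has 1, beginning 46 bases before its start. The windows of Ifitm1, Oasl2 and Cmpk2 hold none, so 100 bases around the start are shown for them. No match says only that these letters are not in this window.

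An ISRE core occurred in the window of 18 of the 31 members (58.1%), against 1079 of 27025 genes in the whole table (3.99%). The members with a match were Bst2, Ddx58, Eif2ak2, Ifi203, Ifih1, Ifit1, Ifit1bl1, Ifit3, Ifit3b, Ifitm2, Ifitm3, Isg15, Oas1a, Oas1g, Oas3, Rsad2, Slfn5 and Trim30a. Among the members called lower in macrophages 10 of 15 had one (66.7%), and among the others 8 of 16 (50.0%). The core of the other interferon element, the gamma-activated site (TTCNNNGAA), occurred in 6 of 31 members (19.4%) and in 9.55% of all genes of the table. A match is a description of the letters and not a measured site.

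**Figure D1:**
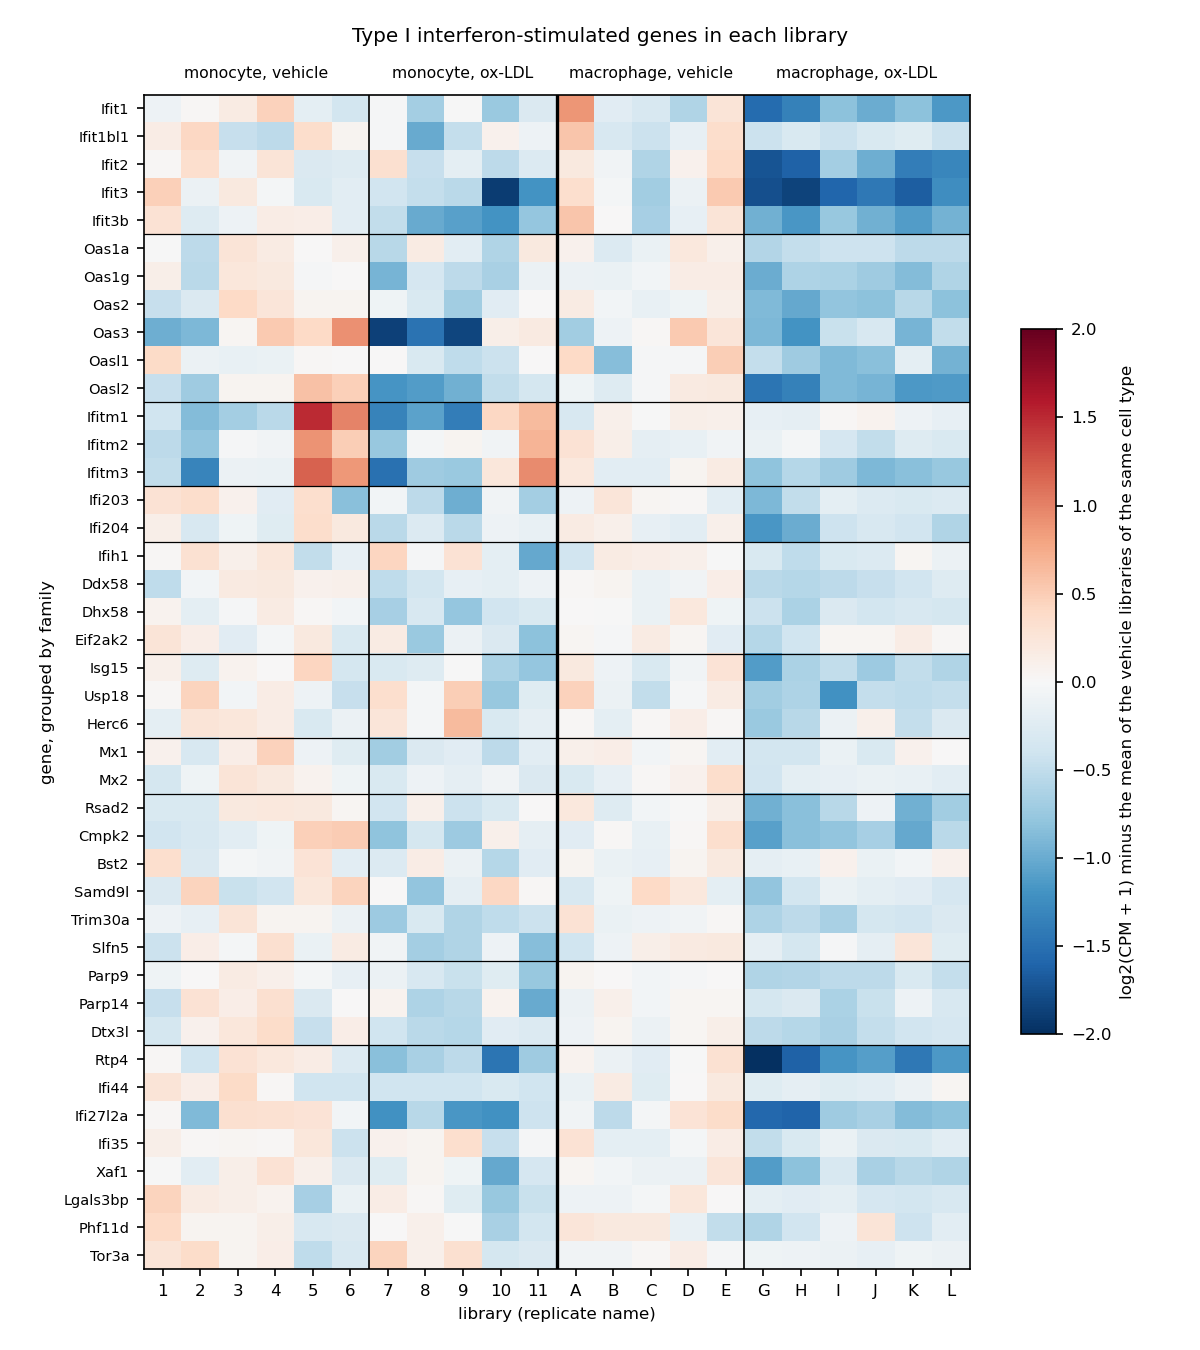
Heat map of the 42 members (rows, grouped by family) in the 22 libraries (columns). The colour is log2(CPM + 1) minus the mean of the vehicle libraries of the same cell type. The macrophage ox-LDL columns are blue across most rows, and the rows of Ifit3, Rtp4 and Oasl2 are among the darkest. In monocytes the Ifitm1 and Ifitm3 rows follow libraries 5, 6, 10 and 11 more than the treatment.

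Levels in the text are CPM, the counts of a gene per 1000000 counts of its library with TMM factors, and levels compared between genes are the deposited TPM, a like scale that corrects for gene length. Called means an adjusted p under 0.05 in edgeR's quasi-likelihood test, with Benjamini-Hochberg adjustment over all genes tested. A fold change is the log2 difference of ox-LDL minus vehicle, given with its standard error. Because the RNA is from bulk cells, fewer cells of a type and less RNA per cell cannot be told apart.

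Lipoprotein-treated macrophages carried less mRNA of the interferon-induced tetratricopeptide proteins, which bind foreign RNA and block its translation. Ifit3 (ENSMUSG00000074896, chr19:34583531-34588731) stood at 8.47, 6.30, 3.597, 5.88 and 9.71 CPM in vehicle replicates A to E. With ox-LDL it ran from 1.07 through a median of 1.45 to 2.16 CPM. The lowest vehicle library was thus above the highest ox-LDL library. The fold change was -2.15 ± 0.24 (adjusted p = 6.3e-04). Of the macrophage genes tested 1.38% were called lower, so the 21 of 39 members stand beside 200 of 14543 genes. That is a description, because the members were chosen with earlier results of these data known.

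Ifit1 (ENSMUSG00000034459, chr19:34640871-34650009), the RNA-cap binding member of the family, was at 5.39, 1.95, 1.75, 1.27 and 3.14 CPM with vehicle. It ran from 0.191 through 0.643 to 0.957 CPM with ox-LDL, and the groups did not overlap (-2.10 ± 0.42, adjusted p = 0.020). Ifit2 (ENSMUSG00000045932, chr19:34550694-34576419) was at 9.42, 7.73, 4.99, 8.68 and 11.1 CPM with vehicle, and at 1.78, 2.61 and 4.72 CPM at the lowest, median and highest ox-LDL library. Its groups were apart by the narrow gap between vehicle replicate C and ox-LDL replicate I (-1.52 ± 0.25, adjusted p = 0.0056).

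Ifit3b (ENSMUSG00000062488, chr19:34607970-34613401), the near copy whose promoter stretch matches that of Ifit3, fell by 2.07 ± 0.32 (adjusted p = 0.0040), from 2.03 ± 0.912 (SD, n = 5) to 0.479 ± 0.145 CPM (SD, n = 6). Of the 50-base words in Ifit3 transcripts 51.2% also occur in Ifit3b, and 44.5% of those in Ifit3b occur in Ifit3. How reads that fit both were counted is not stated in those sources, so the split between this pair is uncertain. Ifit1bl1, a homologue of Ifit1, had 46, 3, 0, 8 and 32 counts in vehicle macrophages and 14 in all 6 ox-LDL libraries together, too few to be tested.

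The oligoadenylate synthetases make 2-5A, the messenger that activates the RNA-degrading enzyme RNase L. In macrophages 4 of the 6 Oas members were called lower, where 1.38% of all genes tested were. Oasl2 (ENSMUSG00000029561, chr5:114896936-114912234), a synthetase-like gene, had the smallest adjusted p of all members. It was at 33.5, 29.6, 35.1, 40.5 and 41.0 CPM with vehicle and ran from 12.3 through 15.6 to 19.0 CPM with ox-LDL, so that every treated library lay well below every vehicle library (-1.19 ± 0.12, adjusted p = 1.5e-04, 2.28-fold lower).

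Oas2 (ENSMUSG00000032690) fell by 1.02 ± 0.13 (adjusted p = 0.0013), from 6.18, 5.17, 4.76, 5.05 and 5.98 CPM to a range of 2.16 to 3.37 CPM with a median of 2.63. Oas1g (ENSMUSG00000066861) fell by 0.82 ± 0.11 and Oas1a (ENSMUSG00000052776), at 70.3 ± 8.97 TPM the highest of the family in vehicle macrophages (SD, n = 5), by 0.50 ± 0.08 (adjusted p = 0.0014 and 0.0055). Oas1a went from 48.2 ± 6.49 (SD, n = 5) to 33.8 ± 1.72 CPM (SD, n = 6). These neighbours on chromosome 5 share 57.6% of the 50-base words of Oas1a, so the split of their reads is also uncertain. Oas3 (-0.74 ± 0.20, adjusted p = 0.074) and Oasl1 (-1.48 ± 0.45, adjusted p = 0.12) were not called. Oasl1 was at 0.358 to 2.46 CPM with vehicle and 0.268 to 1.14 CPM with ox-LDL, and overlapped.

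The Ifitm genes code for small membrane proteins that hinder the fusion of enveloped viruses. Ifitm3 (ENSMUSG00000025492, chr7:141009586-141010770), which had the highest mean level of the family in TPM in each of the 4 groups, fell by 0.77 ± 0.09 (adjusted p = 6.3e-04). It was at 137, 102, 102, 123 and 132 CPM with vehicle and ran from 63.1 through 68.2 to 79.0 CPM with ox-LDL. The spread within each macrophage group was small beside the gap between them. Ifitm2 was not called (-0.26 ± 0.10, adjusted p = 0.24), with 63.1 to 87.0 CPM against 50.5 to 69.5 CPM. Ifitm1 was at or below 0.343 CPM in every macrophage library and was not called (-0.48 ± 0.59, adjusted p = 0.80).

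Among the sensors, Ddx58 (ENSMUSG00000040296, chr4:40203773-40239828) codes for RIG-I, which detects viral RNA in the cytosol. It was at 47.5, 48.2, 42.4, 44.4 and 51.1 CPM with vehicle and at 31.2, 32.9 and 38.8 CPM at the lowest, median and highest ox-LDL library, with no overlap (-0.46 ± 0.07, adjusted p = 0.0050). Dhx58, which codes for the related regulator LGP2, fell by 0.41 ± 0.08 (adjusted p = 0.021). Ifih1, which codes for MDA5 (-0.25 ± 0.12, adjusted p = 0.37), and Eif2ak2, which codes for the double-stranded RNA kinase PKR (-0.10 ± 0.14, adjusted p = 0.83), were not called. Ifi204, a DNA-binding protein of the Ifi200 family, fell by 0.64 ± 0.15 (adjusted p = 0.043), and its neighbour Ifi203 was not called (-0.47 ± 0.16, adjusted p = 0.16).

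Isg15 (ENSMUSG00000035692, chr4:156199455-156200796) codes for a ubiquitin-like protein that is attached to other proteins. Its level was 5.16, 4.04, 3.38, 4.17 and 5.53 CPM with vehicle and ran from 1.48 through 2.52 to 2.85 CPM with ox-LDL, without overlap (-0.88 ± 0.18, adjusted p = 0.021). Usp18, which removes ISG15 and restrains the receptor, was not called (-0.80 ± 0.20, adjusted p = 0.055). Its vehicle values were 9.57, 6.11, 4.50, 6.62 and 7.68 CPM, and the ox-LDL values ran from 2.35 through 4.22 to 4.55 CPM, so that vehicle replicate C fell within the treated range. Herc6, the mouse ligase for ISG15, was not called (-0.36 ± 0.16, adjusted p = 0.32).

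Of the other restriction factors, Cmpk2 (ENSMUSG00000020638), a mitochondrial nucleotide kinase, fell by 0.94 ± 0.14 (adjusted p = 0.0029). Its vehicle values were 7.83, 9.46, 8.38, 9.51 and 11.986 CPM, all above the ox-LDL range of 3.88 to 6.09 CPM with a median of 4.89. Rsad2, the adjacent gene for viperin, an enzyme that makes a chain-terminating nucleotide, fell by 0.74 ± 0.17 (adjusted p = 0.040), but ox-LDL replicate J at 8.71 CPM lay above vehicle replicate B at 7.73 CPM. Trim30a, a ubiquitin ligase, fell by 0.48 ± 0.10 (adjusted p = 0.021). Bst2, which codes for tetherin, stood at 85.0 ± 9.05 CPM (SD, n = 5) and 81.7 ± 6.95 CPM (SD, n = 6) and was not called (-0.05 ± 0.08, adjusted p = 0.85). Samd9l (-0.36 ± 0.14) and Slfn5 (-0.12 ± 0.12) were not called either.

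The ADP-ribosyltransferase Parp9 and its partner ligase Dtx3l sit head to head on chromosome 16, and both fell, by 0.51 ± 0.07 (adjusted p = 0.0015) and 0.49 ± 0.07 (adjusted p = 0.0029). Parp9 was at 31.1, 30.1, 28.9, 29.3 and 30.044 CPM with vehicle and ran from 19.3 through 20.4 to 23.9 CPM with ox-LDL. The vehicle libraries differed little and all lay above the treated ones. The annotations of the pair overlap on opposite strands, and the strand setting of the counting is not stated in those sources, so reads in the overlap cannot be divided between them. Parp14 was not called (-0.34 ± 0.09, adjusted p = 0.056). Of the Mx GTPase genes, Mx1 was at or below 0.413 CPM in every macrophage library (-0.94 ± 0.70, adjusted p = 0.61) and Mx2 was too low to be tested.

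Among the remaining members Rtp4 (ENSMUSG00000033355, chr16:23520291-23614222), a receptor transporter with antiviral activity, fell by 1.51 ± 0.17 (adjusted p = 6.3e-04, 2.85-fold lower). It was at 19.967, 17.3, 15.997, 18.8 and 23.6 CPM with vehicle and ran from 3.94 through 7.09 to 8.29 CPM with ox-LDL, so the highest treated library lay well below the lowest vehicle library. Ifi27l2a, a small interferon-induced membrane protein, fell by 1.13 ± 0.22 (adjusted p = 0.019) and Xaf1, a pro-apoptotic factor, by 0.78 ± 0.15 (adjusted p = 0.018). Lgals3bp, a secreted glycoprotein, was not called (-0.27 ± 0.07, adjusted p = 0.054), although its 5 vehicle values (624 to 781 CPM) all lay above the 6 ox-LDL values (517 to 587 CPM). Ifi35 (-0.31 ± 0.10), Phf11d (-0.30 ± 0.21) and Tor3a (-0.10 ± 0.05) were not called, and Ifi44 was too low to be tested. Rtp4 overlaps Masp1 on the other strand, and Oasl1, Dhx58, Slfn5 and Ifi35 have antisense neighbours. Their values are uncertain in the same way as those of Parp9 and Dtx3l. On their own strand Ifi203 overlaps Mndal, Ifitm2 Gm45717, Herc6 Gm45193, Parp14 Gm49730 and Rtp4 Gm45338. No strand setting separates the reads of these pairs. How such reads were counted is not stated in those sources, so these values are uncertain too.

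**Figure D2:**
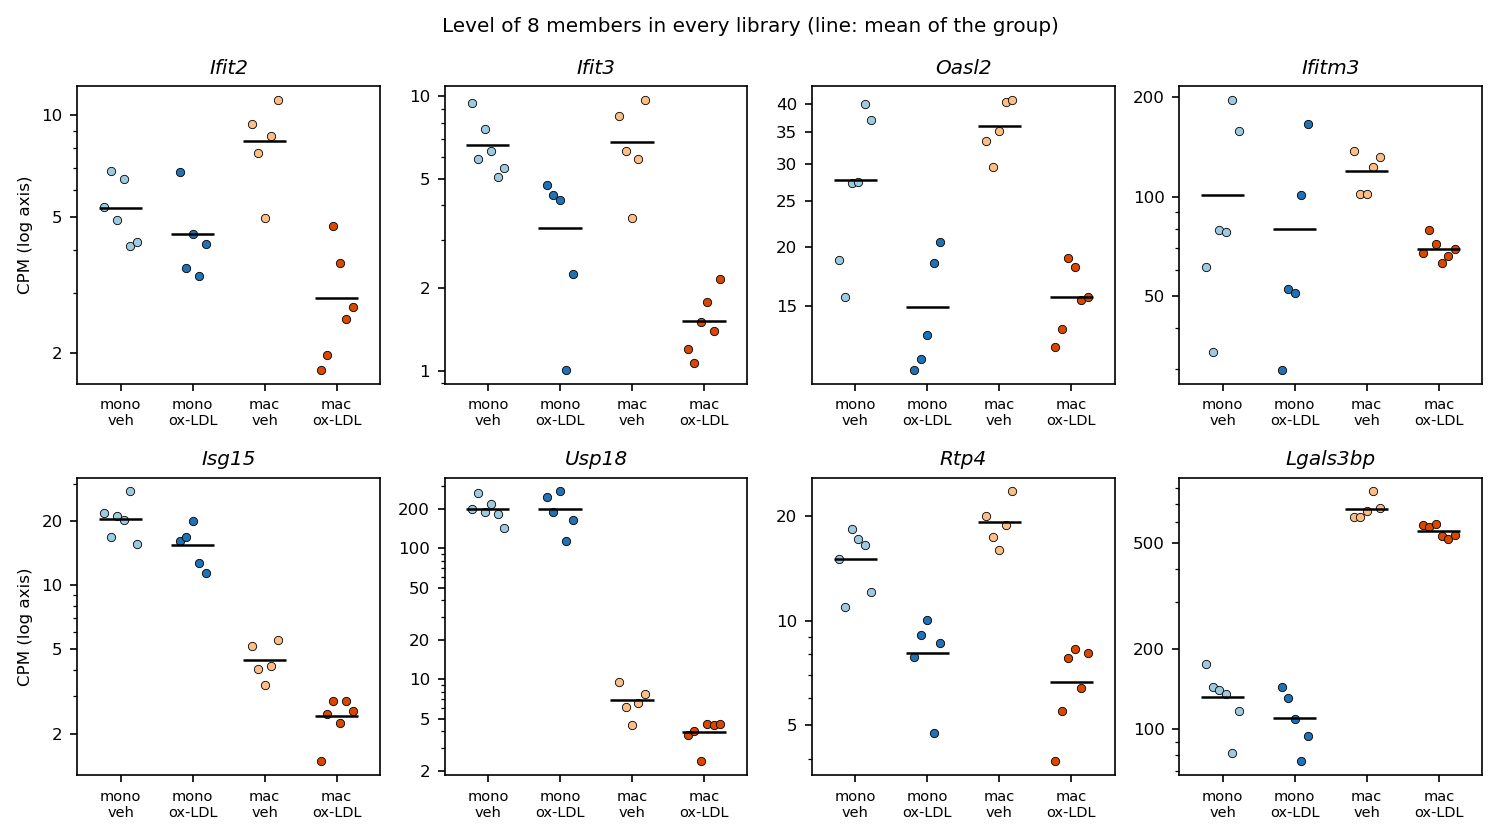
Level of Ifit2, Ifit3, Oasl2, Ifitm3, Isg15, Usp18, Rtp4 and Lgals3bp in CPM (log axis) for each of the 22 libraries, by cell type and treatment, with the mean of each group as a line. In macrophages the vehicle and ox-LDL points are apart for every gene shown other than Usp18. In monocytes the points are apart for Ifit3 and Rtp4.

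Over the whole set, all 39 macrophage estimates were below 0, against 49.9% of all genes tested, and the median was -0.51 against 0.00029. The groups did not overlap in 22 members, each lower with ox-LDL, where 1.84% of all genes tested were apart in that direction. They included 20 of the 21 called genes, with Rsad2 the exception, plus Lgals3bp and Tor3a. Per library, the mean of log2(CPM + 1) over the members differed from the vehicle mean by -0.481 to -0.784 in the ox-LDL libraries, against -0.116 to 0.11 in the vehicle libraries. Within the set of macrophage libraries C, D, I and J the ox-LDL mean was below the vehicle mean in 37 of 39 members (median -0.48), and within the other 7 in all 39 (median -0.74). Ox-LDL replicates G and H were lowest, and all 39 members in each of them were below the vehicle mean.

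The count rests on some libraries more than others. It was 14 without vehicle replicate E (0.672% of all genes tested) and 17 without ox-LDL replicate L (0.832%). In 1 fit over all 4 groups, in which the monocytes share the estimate of the spread, it was 13 (0.424% of all genes). With 2 library sets (C, D, I and J against the rest) in the model, an alternative added with the data known, it was 27, where 3.42% of all genes were lower. That fit added Usp18 (adjusted p = 0.011), Oas3 (0.011), Parp14 (0.012), Lgals3bp (0.026), Ifitm2 (0.044) and Oasl1 (0.044) to the calls. Across 19 alternatives 8 genes were called in each one, namely Ifit2, Ifit3, Ifit3b, Oas1g, Oasl2, Cmpk2, Parp9 and Rtp4. Leaving out vehicle replicate E also ended the calls of Ifit1, Isg15, Ifi27l2a, Trim30a and Xaf1. Ifit1 also lost its call without ox-LDL replicate L, Trim30a without replicate H, and Dhx58 without replicate B, D or L. Ifi204 lost its call without any 1 of 7 libraries and Rsad2 without any 1 of 10. Scaled by total counts, 92 of all genes were higher and 334 lower in macrophages, against 142 and 200, and 24 members were lower (2.3% of all genes).

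Levels of some markers of other cell types moved with treatment in the macrophages. The 12 monocyte markers summed to 25400 to 35290 CPM with vehicle and 21610 to 39420 CPM with ox-LDL, with Plac8 below 1 CPM in all. Among them Cd14 (363 to 573 against 171 to 267 CPM), Ccr2 (6.82 to 12.4 against 2.13 to 5.34 CPM) and Fcgr1 (37.2 to 66.8 against 26.4 to 35.9 CPM) were lower without overlap, and Ace was higher (0.679 to 2.01 against 2.81 to 7.31 CPM). The summed level of 10 plasmacytoid dendritic cell markers, a cell type known for its interferon output, was 113 to 143 CPM with vehicle and 76.2 to 98.5 CPM with ox-LDL. Tcf4 made up most of it (102 to 132 against 66.2 to 90.2 CPM), while Siglech, the surface marker that defines these cells, was at or below 0.127 CPM in every macrophage library. With vehicle 8 of the 10 markers were below 1 CPM in every library, and with ox-LDL 7 were, of which Ly6d and Klk1 were at 0. The 10 conventional dendritic cell markers summed to 202 to 380 CPM and 95.1 to 288 CPM, with Xcr1, Clec9a and Flt3 below 1 CPM in all, and among them H2-Aa did not overlap (86.2 to 129 against 26.7 to 75.5 CPM). The 9 B-cell markers summed to 20.2 to 32.4 CPM with vehicle and 8.94 to 26.7 CPM with ox-LDL, with Pax5 at 0 in both groups. Of these 9 markers 7, all but Cd79b and Ighm, were below 1 CPM in every macrophage library. The 8 T-cell markers summed to 32.3 to 109 CPM and 11.2 to 66.4 CPM. Of these 8 markers 7, all but Cd4, were below 1 CPM in every macrophage library. In monocytes the plasmacytoid list summed to 248 to 423 CPM with vehicle and 157 to 287 CPM with ox-LDL. Spib made the largest part of that difference (121 ± 24.7 CPM, SD, n = 6, against 53.8 ± 19.2 CPM, SD, n = 5), while Siglech was at 0.349 ± 0.416 CPM (SD, n = 6) and 0.517 ± 0.256 CPM (SD, n = 5). The part of these cells in the result was not tested.

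**Figure D3:**
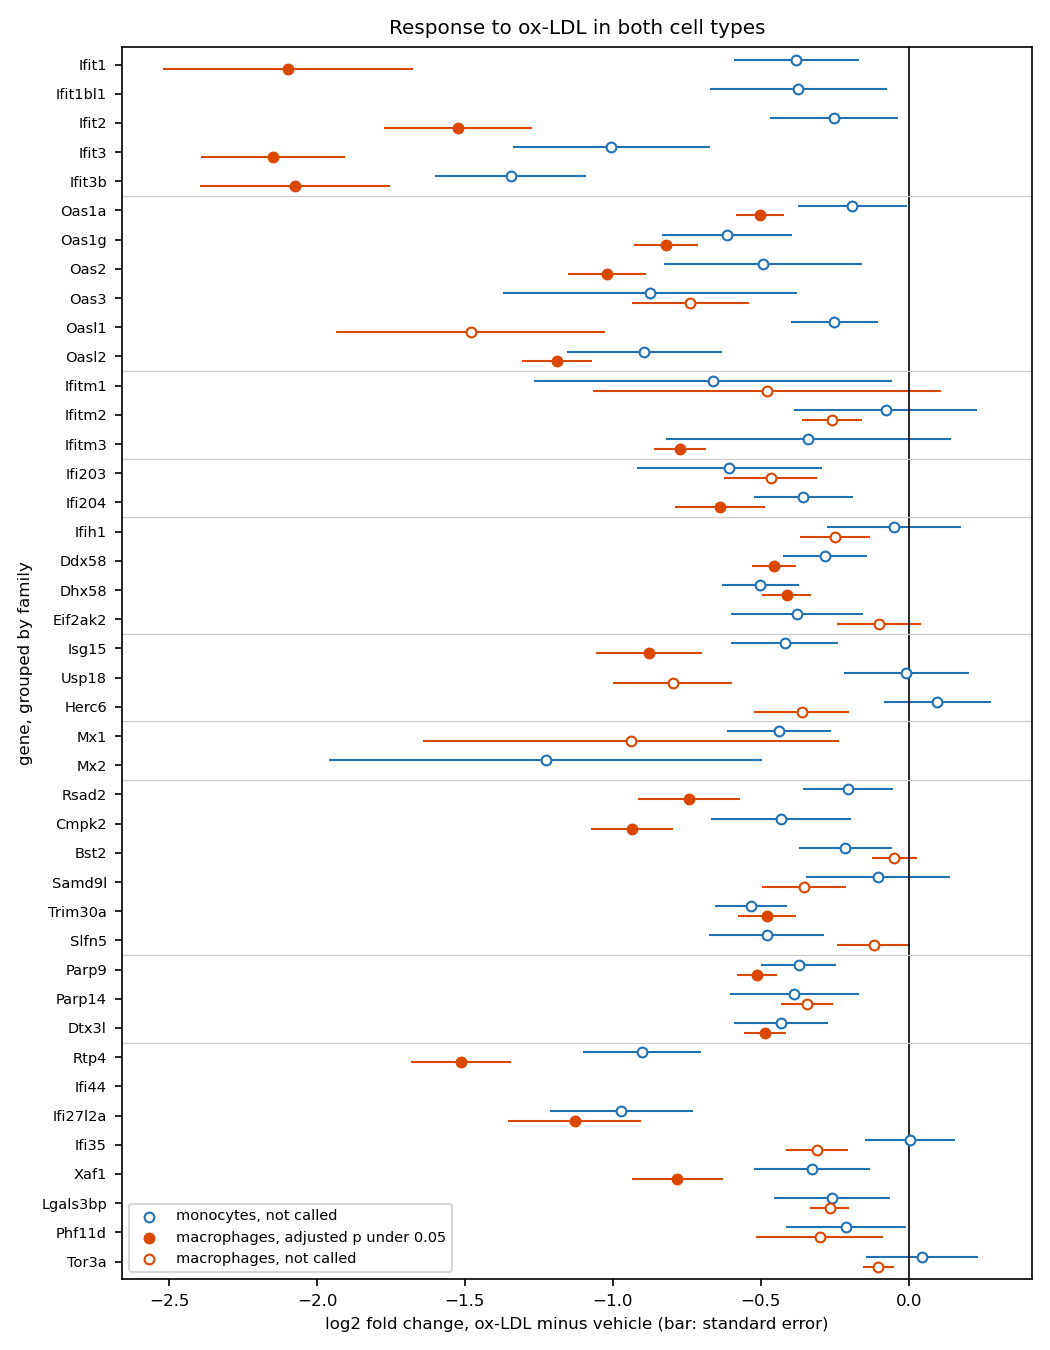
Log2 fold change of ox-LDL minus vehicle (x axis, bars are standard errors) for each member tested, in monocytes (blue) and macrophages (orange), grouped by family. Filled points have an adjusted p under 0.05. The 21 filled points are all macrophage values below 0, from Dhx58 at -0.41 to Ifit3 at -2.15.

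In monocytes 0 of 41 members were called by edgeR in either direction, and 13 had an unadjusted p under 0.05, each with a lower level in ox-LDL, where 10.4% of all genes tested had one in either direction. The members' median was -0.38, against -0.0016 over all genes, and 92.7% of their estimates were below 0 against 50.2% of all genes. The 3 estimates above 0 were those of Herc6 (0.10 ± 0.18), Tor3a (0.04 ± 0.19) and Ifi35 (0.00 ± 0.15).

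The groups did not overlap in 5 monocyte members, each lower with ox-LDL, where 0.664% of all genes tested were apart in that direction. Ifit3b had the smallest adjusted p (-1.35 ± 0.25, adjusted p = 0.0965). Its vehicle libraries ran from 2.58 through 3.31 to 4.22 CPM, and the ox-LDL libraries 7 to 11 were at 2.03, 1.12, 1.00, 0.851 and 1.48 CPM. Ifit3 ran from 5.08 through 6.10 to 9.39 CPM with vehicle and was at 4.73, 4.37, 4.18, 1.01 and 2.26 CPM with ox-LDL (-1.01 ± 0.33, adjusted p = 0.32). Libraries 10 and 11 were the lowest for it.

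Rtp4 ran from 10.9 through 15.8 to 18.3 CPM with vehicle and was at 7.85, 9.07, 10.0, 4.75 and 8.60 CPM with ox-LDL (-0.90 ± 0.20, adjusted p = 0.18). Trim30a (-0.53 ± 0.12, adjusted p = 0.19) and Dhx58 (-0.50 ± 0.13, adjusted p = 0.24) were the other members whose groups were apart.

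For the member of each family with the highest mean CPM over all libraries, the monocyte estimates were smaller than that of Ifit3b. Oas1a was at 39.6 ± 6.93 CPM (SD, n = 6) and 34.8 ± 9.25 CPM (SD, n = 5), with a fold change of -0.19 ± 0.18. Ddx58 gave -0.28 ± 0.14, Dtx3l -0.43 ± 0.16, Bst2 -0.21 ± 0.16, Ifi204 -0.36 ± 0.17, Mx1 -0.44 ± 0.18, Lgals3bp -0.26 ± 0.20 and Ifit2 -0.25 ± 0.22, with adjusted p from 0.37 to 0.75. Usp18 was at 198 ± 41.3 CPM (SD, n = 6) and 198 ± 63.5 CPM (SD, n = 5), a fold change of -0.01 ± 0.21. Isg15 (-0.42 ± 0.18, adjusted p = 0.45) was not called, with 15.6 to 27.8 CPM against 11.4 to 20.1 CPM.

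Ifitm1, Ifitm3 and Oas3 varied between libraries more than between treatments. Ifitm3 was at 197 and 158 CPM in vehicle libraries 5 and 6 and at 101 and 166 CPM in ox-LDL libraries 10 and 11, and at 29.8 to 79.1 CPM in the other 7. Ifitm1 was at 10.1 to 22.6 CPM in those 4 libraries and at 2.22 to 5.35 CPM in the other 7. The same 4 libraries had a summed level of 11 neutrophil markers of 27310 to 42540 CPM, against 4130 to 5252 CPM in the rest. Oas3 was at 5.46, 7.47 and 5.58 CPM in ox-LDL libraries 7 to 9 and at 24.7 and 25.8 CPM in libraries 10 and 11, and vehicle ran from 10.9 to 43.3 CPM. The part of neutrophil RNA in these values was not tested.

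With libraries 5, 6, 10 and 11 left out 0 members were called, as were 0 of all 16968 genes tested in either direction. Within libraries 5, 6, 10 and 11 the ox-LDL mean was below the vehicle mean in 40 of 41 members (median -0.34), within libraries 3, 4, 8 and 9 in 35 (median -0.51), and within libraries 1, 2 and 7 in 31 (median -0.26). Each library's mean over the members was lower in all 5 ox-LDL libraries (-0.281 to -0.41 relative to the vehicle mean) than in all 6 vehicle libraries (-0.157 to 0.107). Some other fits made calls. DESeq2 called 5 members lower (Ifit3b, Dhx58, Trim30a, Rtp4 and Ifi27l2a), where 0.404% of all genes were lower. A shared fit of the 4 groups called 6 (0.624% of all genes), and limma voom 0 (0.00603%). With 2 library sets (5, 6, 10 and 11 against the rest) as a covariate 4 were lower (0.223% of all genes). With the 3 library sets above as a covariate, a choice made after the data were seen, 8 were lower (0.525% of all genes tested). They were Ifit3, Ifit3b, Oas3, Oasl2, Ifitm1, Trim30a, Rtp4 and Ifi27l2a. Libraries 1, 2 and 7 had 453 to 878 CPM of 8 erythroid markers, against 6607 to 14510 CPM in the other monocyte libraries. Their 9 B-cell markers summed to 1758 to 2289 CPM, against 603 to 1175 CPM. The part of these cells in the members' values was not tested.

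The ox-LDL effect was not shown to differ between the cell types for any member. In the test of the difference of effects 0 of 42 members were called, 8 had an unadjusted p under 0.05 (7.22% of all genes), and DESeq2 and limma voom also called 0. The 4 groups shared 1 estimate of the spread in that test. Of the 42 estimates 30 were below 0 and 12 above, so 71.4% were below 0 against 50.8% of all genes. Over all genes 0.063% were called in that test (11 of 17466). Ifit2 had the smallest adjusted p, with a macrophage effect lower than the monocyte effect by 1.25 on the log2 scale (-1.25 ± 0.35, adjusted p = 0.33). Ifit1 gave -1.69 ± 0.49, Oasl1 -1.22 ± 0.46 and Ifit3 -1.13 ± 0.44. The 2 largest values were those of Ifi44 (3.00 ± 1.71) and Ifit1bl1 (-2.41 ± 0.96), and both genes had few counts in some groups. Ifi44 had 104 counts in vehicle and 3 in ox-LDL monocytes, and 40 and 17 in macrophages. Ifit1bl1 had 89 and 14 in macrophages. Dtx3l (-0.02 ± 0.18) and Lgals3bp (0.02 ± 0.23) were nearest 0.

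Upstream of these genes, the ligands were near 0 in all groups. Of 18 type I interferon genes 6 had any count in vehicle monocytes, 2 in ox-LDL monocytes, 3 in vehicle macrophages and 2 in ox-LDL macrophages, with 17, 9, 15 and 12 counts in all. Ifnb1 had 5, 7, 8 and 6 of them, and no ligand passed the filter for a test. The receptor genes Ifnar1 and Ifnar2 were at 194 ± 24.7 and 153 ± 15.8 CPM in vehicle macrophages (SD, n = 5) and were not called with ox-LDL (-0.02 ± 0.14 and -0.11 ± 0.08). Their kinases Jak1 (0.02 ± 0.06) and Tyk2 (-0.05 ± 0.09) were not called either.

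Irf9 and Stat2 were called lower in macrophages. Irf9, the DNA-binding part of ISGF3, was at 61.7, 56.4, 54.0, 64.3 and 66.4 CPM with vehicle and at 38.6 to 48.7 CPM with ox-LDL, so the groups were apart (-0.49 ± 0.07, adjusted p = 0.0031). Stat2 also fell (-0.49 ± 0.11, adjusted p = 0.029), and ox-LDL replicate I at 44.7 CPM lay above vehicle replicate A at 43.1 CPM.

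Among the interferon regulatory factors 3 of 6 were called lower in macrophages, where 1.38% of all genes tested were. Irf7 was at 20.1, 15.0, 13.9, 18.9 and 24.6 CPM with vehicle and at 7.38 to 10.2 CPM with ox-LDL, and fell by 1.09 ± 0.14 (adjusted p = 0.0012). Irf2, a repressor of interferon responses (-0.32 ± 0.06, adjusted p = 0.021), and Irf5, which acts below Toll-like receptors (-0.27 ± 0.06, adjusted p = 0.032), fell less. Of 15 sensing and adaptor genes 1 was called, Tmem173, which codes for STING (-0.41 ± 0.10, adjusted p = 0.040), and of 5 feedback inhibitors 0 were called by edgeR (2 at an unadjusted p under 0.05, as 14.2% of all genes).

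Of 44 further interferon-stimulated genes outside the set 42 were tested in macrophages, and 37 estimates were below 0, against 49.9% of all genes. Of the 42 genes 8 were called lower and 0 higher, where 1.38% of all genes tested were called lower. The 8 were Phf11a (-1.23 ± 0.23), Trim30d (-0.67 ± 0.11), Phf11b (-0.66 ± 0.14), the immunity-related GTPase Ifi47 (-0.65 ± 0.12), the nuclear body gene Sp100 (-0.38 ± 0.08), the peptide transporter Tap1 (-0.37 ± 0.09), Slfn2 (-0.33 ± 0.07) and Parp12 (-0.30 ± 0.06). In monocytes 0 of the 43 tested were called by edgeR, where 0.0% of all genes tested were called lower. Of the 43 genes 9 had an unadjusted p under 0.05 (10.4% of all genes), and 32 estimates were below 0 (50.2% of all genes). In monocytes Irf7 was at 22.3 to 33.9 CPM with vehicle and at 19.5, 20.9, 17.8, 12.2 and 16.6 CPM with ox-LDL, apart but not called (-0.74 ± 0.16, adjusted p = 0.16). Stat2 (0.02 ± 0.22), Irf9 (-0.27 ± 0.12), Ifnar1 (0.16 ± 0.15), Ifnar2 (-0.02 ± 0.14), Jak1 (0.19 ± 0.16) and Tyk2 (-0.34 ± 0.19) were not called in monocytes.

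**Figure D4:**
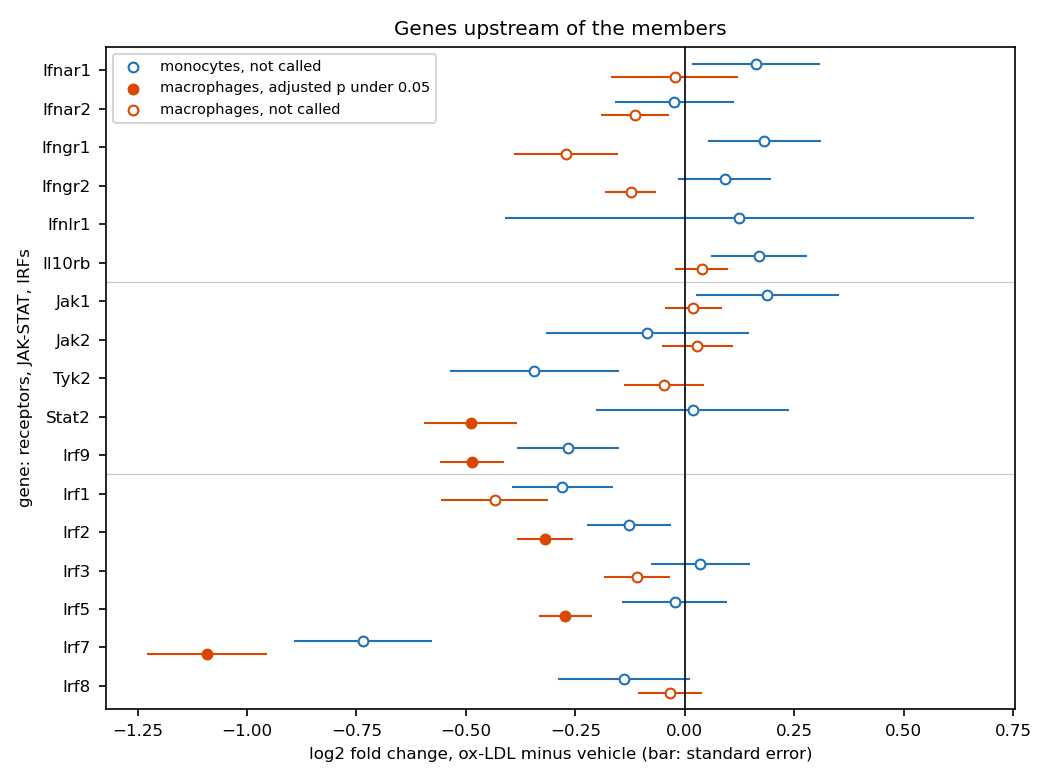
Log2 fold change of ox-LDL minus vehicle (x axis, bars are standard errors) for interferon receptors, JAK-STAT genes and interferon regulatory factors, in monocytes (blue) and macrophages (orange). Filled points have an adjusted p under 0.05. The filled points are Stat2, Irf9, Irf2, Irf5 and Irf7 in macrophages, with Irf7 the lowest at -1.09.

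In vehicle-treated cells 18 of 42 members were lower in macrophages than in monocytes and 11 higher, where 35.1% of all genes tested were called lower and 28.5% higher, so neither count is read as particular to the members. The median over all genes was -0.09 on the log2 scale, and -0.175 when libraries were scaled by total counts. Of the ISG15 pathway 3 of 3 genes were lower, while of the Oas family 3 of 6 were higher and 1 was lower.

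Mx1 (-5.33 ± 0.30), Ifitm1 (-5.30 ± 0.70), Usp18 (-4.93 ± 0.23), Oasl1 (-4.12 ± 0.35), Isg15 (-2.28 ± 0.18) and Rsad2 (-2.18 ± 0.14) were the lowest among called members with a mean of at least 5 CPM over the libraries compared, with adjusted p from 6.9e-10 to 1.5e-05. Usp18 was at 142 to 266 CPM in vehicle monocytes and at 4.50 to 9.57 CPM in vehicle macrophages. Mx1 was at 8.58 to 15.4 CPM and 0.113 to 0.413 CPM. For both genes every macrophage library lay far below every monocyte library.

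The highest were Lgals3bp (2.26 ± 0.17), Slfn5 (1.499 ± 0.15), Oas3 (1.199 ± 0.33), Ifi204 (1.13 ± 0.14), Oas1g (0.79 ± 0.16) and Bst2 (0.79 ± 0.13), with adjusted p from 7.2e-08 to 0.0053. Slfn5, a nuclear protein of the Schlafen family, was at 11.7 to 20.1 CPM in monocytes and 35.9, 44.8, 51.9, 54.6 and 55.1 CPM in macrophages. Oas3 overlapped between the cell types, at 10.9 to 43.3 CPM against 36.2 to 85.6 CPM. Oas2 was higher too, from a low level (1.85 ± 0.25, 1.42 ± 0.519 CPM against 5.43 ± 0.618 CPM).

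Compared per length in vehicle cells, Lgals3bp led the members in macrophages at 652 ± 82.9 TPM, before Ifitm3 (482 ± 50.1 TPM), Ifitm2 (300.4 ± 26.7 TPM) and Bst2 (259 ± 28.2 TPM), all SD over 5 libraries. In monocytes Ifitm3 (390.4 ± 187 TPM), Ifitm2 (275 ± 83.8 TPM), Usp18 (203 ± 65.4 TPM) and Ifi27l2a (166 ± 44.8 TPM) led, all SD over 6 libraries. The SDs of Ifitm3, Ifitm2 and Usp18 in monocytes reach across their neighbours in that order, so those ranks are not resolved.

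**Figure D5:**
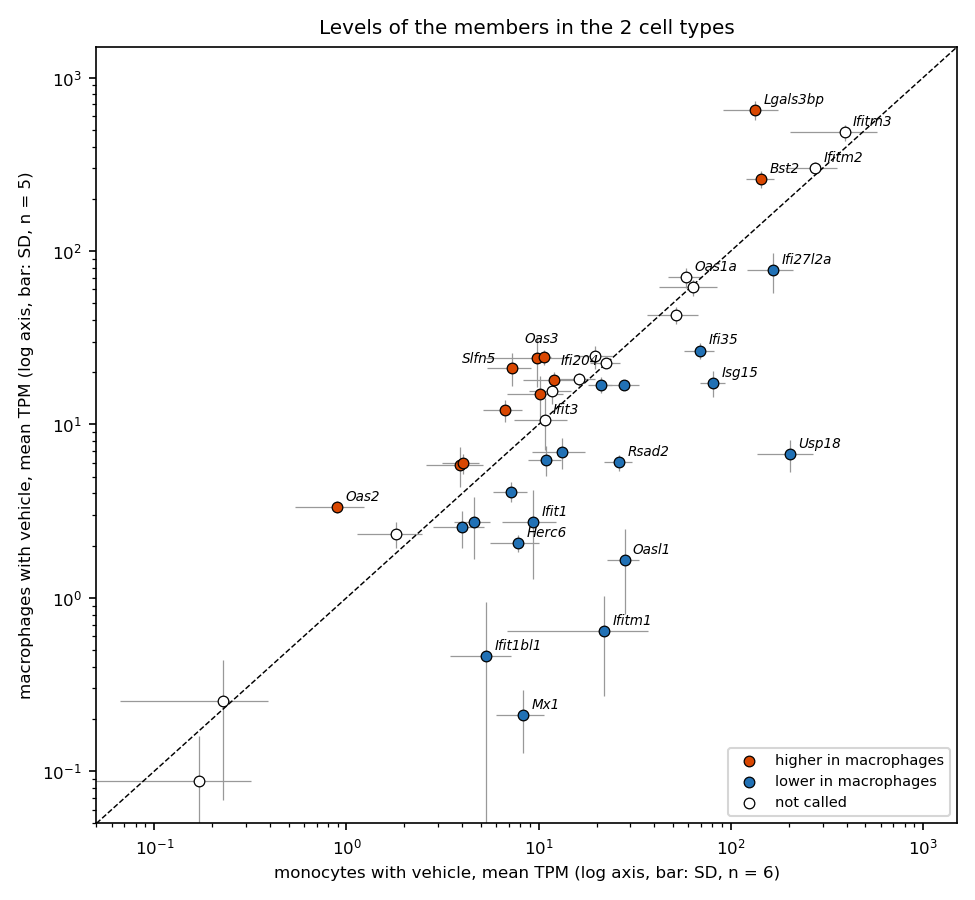
Mean TPM of each member in vehicle monocytes (x axis, SD over 6 libraries) and vehicle macrophages (y axis, SD over 5 libraries), both on log axes, with the line of equal level dashed. Orange points were called higher in macrophages and blue points lower. Usp18, Oasl1, Ifitm1 and Mx1 lie farthest below the line, and Lgals3bp lies highest above it among the abundant genes.

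With ox-LDL 20 of 40 members tested were lower in macrophages than in monocytes and 9 higher, where 35.0% of all genes were lower and 30.3% higher. Usp18 (-5.71 ± 0.26), Oasl1 (-5.35 ± 0.33), Isg15 (-2.74 ± 0.20), Rsad2 (-2.71 ± 0.19), Herc6 (-2.39 ± 0.21) and Ifi35 (-1.73 ± 0.13) were the lowest with a mean of at least 5 CPM. Lgals3bp (2.26 ± 0.16), Slfn5 (1.87 ± 0.18), Oas3 (1.35 ± 0.41), Bst2 (0.96 ± 0.12), Ifi204 (0.85 ± 0.17) and Eif2ak2 (0.80 ± 0.23) were the highest. Ifit2, which was higher in macrophages with vehicle (0.57 ± 0.21, adjusted p = 0.031), was lower with ox-LDL (-0.69 ± 0.27, adjusted p = 0.040). Both calls of Ifit2 were lost in 7 of 19 alternatives, and the change between them is the difference of effects given above, which was not called.

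Several signalling genes were lower in macrophages in the vehicle comparison, with Tyk2 at -1.57 ± 0.20, Stat2 at -0.90 ± 0.18, Irf7 at -0.72 ± 0.16 and Irf9 at -0.59 ± 0.10. Ifnar2 was higher (0.60 ± 0.11), and Ifnar1 (0.12 ± 0.15) and Jak1 (-0.11 ± 0.13) were not called. Of the regulatory factors 6 of 6 were lower, where 35.1% of all genes tested were called lower. These comparisons share their libraries with the ox-LDL comparisons. Differences between the cell types include PMA, time in culture and makeup, which cannot be told apart. The libraries labelled monocytes had 10890 to 15100 CPM of conventional dendritic cell markers with vehicle, mostly Ccr7 (5512 to 8008 CPM), H2-Aa and Fscn1, against 4159 to 14400 CPM of 12 monocyte markers. Ly6c2, which marks classical monocytes, was at 25.2 to 285 CPM there. The libraries labelled macrophages had 53410 to 71680 CPM of 10 macrophage markers, among them Gpnmb and Adgre1. The part of dendritic cell RNA in the levels of the members was not tested.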

How the data were processed

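Polyadenylated RNA of 22 libraries was aligned to GRCm38 with STAR 2.7.9a and counted per gene with featureCounts 2.0.3 from Subread, per the submitters' processing notes. The strand setting and the treatment of reads that fit several genes are not stated there. The authors deposited raw counts per gene, used here for all tests, and the deposited CPM, FPKM and TPM tables derive from them. The deposited CPM and TPM followed from the counts and lengths (0 values departed), TPM gave levels between genes, and FPKM was not used. Totals of 37330389 to 50257111 counts limit precision mainly for genes under 1 CPM.

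Tests were edgeR 4.0.16 quasi-likelihood F tests (R 4.3.3, TMM factors, filterByExpr, Benjamini-Hochberg over all genes tested, threshold 0.05), fitted within the groups compared. Only the macrophage ox-LDL comparison was checked on simulated counts, with the same spread setting for every gene and no library sets. The other comparisons were not checked in this way. The SE is the fold change divided by the root of F. Alternatives used DESeq2 1.42.0, limma voom 3.58.1, other scalings and filters, 1 fit over all 4 groups, library sets and left-out libraries. Named genes were, in each family, the called members and the member with the highest mean CPM. Between cell types they were the 6 largest changes each way with a mean of at least 5 CPM, and others were named after their values were seen. The members and lists were chosen with earlier results of these data known. The result of 1 gene of the signalling list is not reported here.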

Additional observations from a re-analysis of the deposited data

Results flagged for a closer look

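In 3 of 70 groups of member levels examined, 1 library stood apart from the others of its group by more than Dixon's 95% critical value, and chance alone gives about 1 in 20 groups. Ddx58 was at 28.2 CPM in monocyte vehicle replicate 1, where the other 5 libraries ran from 39.0 to 46.2 CPM. Oas1a was at 26.8 CPM in monocyte vehicle replicate 2, where the others ran from 39.0 to 46.7 CPM. Usp18 was at 2.35 CPM in macrophage ox-LDL replicate I, where the others ran from 3.77 to 4.55 CPM.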

How the results depend on the processing

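No paired analysis was possible because the groups share no replicate numbers. The number of members called lower in monocytes, 0 with edgeR, was 6 when all 4 groups shared 1 fit, 5 with DESeq2, and 4 and 8 with 2 and 3 library sets as a covariate, both added after seeing the data. In macrophages it went from 21 to 13 in 1 fit over all 4 groups and ran from 14 to 21 with 1 library left out, and was 27 with 2 library sets. Over all macrophage genes the 1 fit over all 4 groups called 6 higher and 74 lower, against 142 and 200. The fit with 2 library sets called 309 higher and 498 lower, and total counts gave 92 and 334. The estimate of Usp18 in monocytes (-0.01) changed sign without the 4 libraries high in neutrophil markers (0.10) and with 3 library sets (0.0156), and ran from -0.15 to 0.13 with 1 library left out. That of Bst2 in macrophages (-0.05) ran from -0.0874 to 0.0031. Neither gene was called in these comparisons in any alternative, and the cause was not tested. Of the calls between cell types 25 of 29 with vehicle and 27 of 29 with ox-LDL were kept in all 19 alternatives. Depth limits Ifit1bl1, Mx2 and Ifi44 in macrophages.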
